A study of Saccharomyces cerevisiae with 12 samples.

Results

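Trehalose and glycogen are the carbohydrate stores of budding yeast, and 10 genes that make or break them down were examined in cells lacking the excision repair proteins Rad4 and Rad23. The genes were *TPS1*, *TPS2*, *TPS3*, *TSL1*, *NTH1*, *GSY1*, *GSY2*, *GLC3*, *GPH1* and *GDB1*, 10 of the 5656 genes that had a probe set of their own on the Affymetrix yeast S98 array. Each was represented by a single probe set that the platform annotation assigned to it alone, and none was removed by a filter. The strains were *rad4Δrad23Δ*, *rad23Δ* (Euroscarf Y10278), *rad4Δ* (Euroscarf Y16158) and wildtype (Euroscarf Y10000), all in the BY4742 background. The double mutant carries the *HIS3* marker at the *RAD4* locus and descends from *rad23Δ* cells, not from the *rad4Δ* strain. All cultures were untreated and growing in YPD at an optical density of 0.5 to 0.6, and 3 arrays were hybridised per strain, 12 in all. The values are log2 signals after robust multichip average (RMA) normalization.

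Trehalose is a disaccharide of glucose that protects proteins and membranes during heat and drying. Glycogen is a branched glucose polymer that yeast lays down as glucose runs low. Both start from UDP-glucose, both are made by stress-inducible genes that carry stress response elements bound by Msn2 and Msn4, and both are held low by protein kinase A during rapid growth on glucose. Genes for synthesis and for breakdown are often induced together in yeast, and much of the flux is set by phosphorylation of the enzymes.

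The deleted genes were read on each array before the results. The *RAD4* signal was between 2.70 and 2.99 in *rad4Δrad23Δ* and between 5.12 and 5.44 in *rad23Δ*. It was 3.49, 5.47 and 3.01 on the arrays labelled *rad4Δ* replicates 1, 2 and 3, and 5.11, 5.12 and 3.42 on those labelled wildtype replicates 1, 2 and 3. The array labelled *rad4Δ* replicate 2 and that labelled wildtype replicate 3 therefore go against their labels, and calls and differences are given with all 12 arrays and, where they rest on these arrays, again without both. Counts at an unadjusted p and of arrays apart use all 12. *RAD23* was at or below 4.88 on the 6 arrays of strains lacking it and at or above 9.32 on the other 6. The alpha-cell receptor gene *STE3* was between 9.20 and 9.72 on all arrays, and the a-cell receptor gene *STE2* between 3.07 and 3.53, the pattern of an alpha strain. *HIS3*, the marker of the double mutant, was between 9.56 and 9.66 in *rad4Δrad23Δ* and between 8.57 and 9.10 on the other 9 arrays with 1 of its probe sets. The study calls the 3 arrays of a strain biological repeats, and how the cultures were separated is not given in the sources used here.

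The double mutant had the highest mean of the 4 strains for 6 of the 10 genes, *TPS1*, *TSL1*, *NTH1*, *GLC3*, *GPH1* and *GDB1*. Leaving out the arrays in doubt, it was highest for 7, since *GLC3* then averaged 8.09 in the double mutant and 8.29 in *rad4Δ*, and *TPS2* and *TPS3* joined. For *GPH1*, *NTH1* and *TSL1* each of its 3 arrays lay above every one of the 9 other arrays, which was so for 2.79% of all 9275 probe sets tested. With all 12 arrays no member passed an adjusted p of 0.05 in any of the 6 comparisons (limma, Benjamini-Hochberg over all probe sets). Without the 2 arrays in doubt, *GPH1* and *GDB1* were called higher in *rad4Δrad23Δ* than in *rad23Δ*, and *GSY1* was called higher than wildtype in all 3 mutants. The *GPH1* and *GDB1* differences themselves were unchanged by this omission. Their standard errors, which rest on a spread estimated over all strains, fell from 0.28 to 0.22 and from 0.20 to 0.15. Averaged over the 10 genes, each centred on its own 12-array mean, the arrays stood at 0.26, 0.25 and 0.25 in *rad4Δrad23Δ*, at -0.20, -0.15 and -0.12 in *rad23Δ*, at 0.06, -0.24 and 0.02 in *rad4Δ* and at -0.09, -0.11 and 0.07 in wildtype. The double mutant arrays were thus the 3 highest and close together, and the *rad23Δ* arrays were low with the array labelled *rad4Δ* replicate 2.

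**Figure D1:**
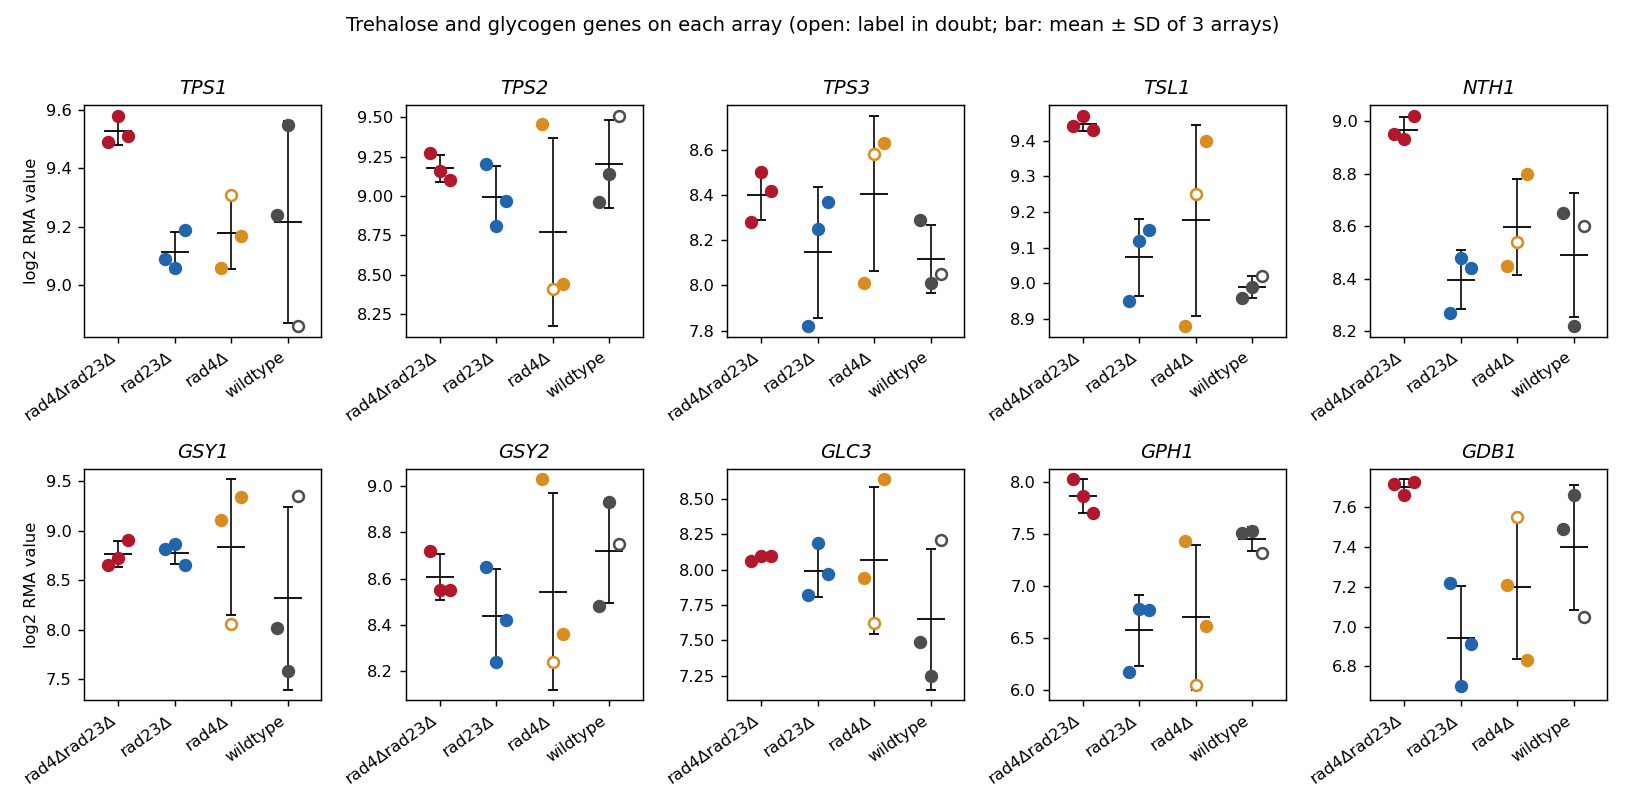
Log2 RMA value (vertical axis, own scale in each panel) of the 10 genes on each array, by strain, with filled points for arrays, open points for the arrays labelled *rad4Δ* replicate 2 and wildtype replicate 3, and the mean ± SD of 3 arrays in black. The double mutant points of *TSL1*, *NTH1* and *GPH1* lie above all others, while *GSY1* spreads from 7.58 to 9.35 within wildtype.

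The spread within a strain set how much could be seen. Over the 10 genes, the median SD of 3 arrays was 0.07 in *rad4Δrad23Δ*, 0.19 in *rad23Δ*, 0.39 in *rad4Δ* and 0.26 in wildtype. Over all probe sets the same medians were 0.09, 0.15, 0.19 and 0.15 in that order. The genes therefore varied about as other probe sets did in the double mutant, slightly more than others in *rad23Δ*, and more in *rad4Δ* and wildtype. The last 2 strains hold the arrays in doubt. Without these arrays the medians over all probe sets were 0.19 in *rad4Δ* and 0.11 in wildtype, from 2 arrays each. The part of these arrays in the spread of the 10 genes was not tested.

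Trehalose synthesis runs through a complex of Tps1, which joins glucose to make trehalose 6-phosphate, Tps2, the phosphatase that yields trehalose, and the regulatory subunits Tps3 and Tsl1. *TSL1* (YML100W) was at 9.44, 9.47 and 9.43 in *rad4Δrad23Δ*, at 8.95, 9.12 and 9.15 in *rad23Δ*, at 8.88, 9.25 and 9.40 in *rad4Δ* and at 8.96, 8.99 and 9.02 in wildtype. All 3 double mutant arrays lay above all others. The difference from wildtype was 0.46 (standard error 0.12, 1.37-fold, adjusted p = 0.16 from limma). That from *rad23Δ* was 0.37 (adjusted p = 0.25), and that from *rad4Δ* was 0.27, with the closest *rad4Δ* array at 9.40. In a fit of the *rad4Δrad23Δ* and wildtype arrays alone, the *TSL1* difference was called (adjusted p = 0.0413 from limma). It was 0.47 when the arrays in doubt were left out, and was not called (adjusted p = 0.292).

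*TPS1* (YBR126C) was at 9.49, 9.58 and 9.51 in *rad4Δrad23Δ*, at 9.09, 9.06 and 9.19 in *rad23Δ*, at 9.06, 9.31 and 9.17 in *rad4Δ* and at 9.24, 9.55 and 8.86 in wildtype. The double mutant lay above both single mutants on every array and overlapped wildtype, whose replicate 2 reached 9.55. Its difference was 0.41 against *rad23Δ* (95% interval 0.09 to 0.73, adjusted p = 0.304) and 0.35 against *rad4Δ* (0.03 to 0.67, adjusted p = 0.409). Against wildtype it was 0.31 with all arrays and 0.13 without those in doubt. The array labelled wildtype replicate 3, at 8.86, was the lowest of all 12 for this gene.

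The double mutant did not stand apart for the other members of the complex. *TPS2* (YDR074W) had means of 9.18 ± 0.09 in *rad4Δrad23Δ*, 8.99 ± 0.20 in *rad23Δ*, 8.77 ± 0.60 in *rad4Δ* and 9.20 ± 0.28 in wildtype (SD, n = 3 each). Its highest array within *rad23Δ*, *rad4Δ* and wildtype was at 9.20, 9.46 and 9.51, and these 3 arrays (replicates 1, 1 and 3) had the narrowest interquartile ranges over all probe sets, 3.57, 3.62 and 3.62, against 3.75 to 3.85 on the other 9. The part of this array property in the *TPS2* values was not tested. *TPS3* (YMR261C) had means of 8.40 in *rad4Δrad23Δ*, 8.15 in *rad23Δ*, 8.41 in *rad4Δ* and 8.12 in wildtype, and the arrays of every pair of strains overlapped. Its double mutant arrays ran from 8.28 to 8.50, against 8.01 to 8.29 in wildtype, and the 95% interval of that difference was -0.11 to 0.67. Without the arrays in doubt the double mutant had the highest mean for both genes, at 9.18 for *TPS2*, against 8.99 in *rad23Δ*, 8.95 in *rad4Δ* and 9.05 in wildtype. For *TPS3* it was at 8.40, against 8.15 in *rad23Δ*, 8.32 in *rad4Δ* and 8.15 in wildtype. None of these differences was called.

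Trehalose is split in the cytosol by the neutral trehalase Nth1. *NTH1* (YDR001C) was at 8.95, 8.93 and 9.02 in *rad4Δrad23Δ*, at 8.27, 8.48 and 8.44 in *rad23Δ*, at 8.45, 8.54 and 8.80 in *rad4Δ* and at 8.65, 8.22 and 8.60 in wildtype. All 3 double mutant arrays were above all others. By limma the difference from *rad23Δ* was 0.57 (standard error 0.13, 1.48-fold, adjusted p = 0.0813), that from *rad4Δ* 0.37 (adjusted p = 0.3) and that from wildtype 0.48 (adjusted p = 0.17). Leaving out the arrays in doubt gave 0.57, 0.34 and 0.53 in that order, none of them called, while a fit of *rad4Δrad23Δ* and *rad23Δ* alone called *NTH1*. The synthesis gene *TSL1* and the breakdown gene *NTH1* thus both had their highest values in the double mutant.

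Glycogen chains are lengthened by the synthases Gsy1 and Gsy2 and branched by Glc3. *GSY1* (YFR015C), the gene of the synthase usually described as the minor one, was at 8.65, 8.73 and 8.91 in *rad4Δrad23Δ* and at 8.82, 8.87 and 8.65 in *rad23Δ*. It was at 9.11, 8.06 and 9.34 on the *rad4Δ* arrays and at 8.02, 7.58 and 9.35 on the wildtype arrays, replicates 1, 2 and 3 in order. The low arrays were therefore wildtype replicates 1 and 2 and the array labelled *rad4Δ* replicate 2, and the other 9 were at 8.65 or above. After the *GSY1* values were seen, the probe sets without a gene name were searched for the largest difference between these 3 arrays and the other 9. The probe set found was between 4.28 and 4.75 on the 3 arrays, against 12.06 to 12.36 on the other 9. It was picked for this split, so it is not separate evidence of it.

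With all arrays the *GSY1* difference from wildtype was 0.45 in *rad4Δrad23Δ*, 0.46 in *rad23Δ* and 0.52 in *rad4Δ*, each with a standard error of 0.39 and an adjusted p of at least 0.712 (limma). Without the 2 arrays in doubt it was 0.96 in *rad4Δrad23Δ* (1.95-fold, adjusted p = 0.0216), 0.98 in *rad23Δ* (1.97-fold, adjusted p = 0.0185) and 1.42 in *rad4Δ* (2.69-fold, adjusted p = 0.00637). These 3 differences share the same 2 wildtype arrays, at 8.02 and 7.58. Between the double mutant and *rad23Δ* the difference was -0.02, with a 95% interval of -0.32 to 0.29 without the arrays in doubt.

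*GLC3* (YEL011W), the branching enzyme gene, showed the same 3 arrays lowest. It was at 8.06, 8.10 and 8.10 in *rad4Δrad23Δ*, at 7.82, 8.19 and 7.97 in *rad23Δ*, at 7.94, 7.62 and 8.64 in *rad4Δ* and at 7.49, 7.25 and 8.21 in wildtype. Against wildtype its difference was 0.44 in *rad4Δrad23Δ*, 0.34 in *rad23Δ* and 0.42 in *rad4Δ* with all arrays. Without those in doubt the differences were 0.72, 0.62 and 0.92 in the same order, and none was called (adjusted p = 0.196, 0.334 and 0.176 from limma).

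**Figure D2:**
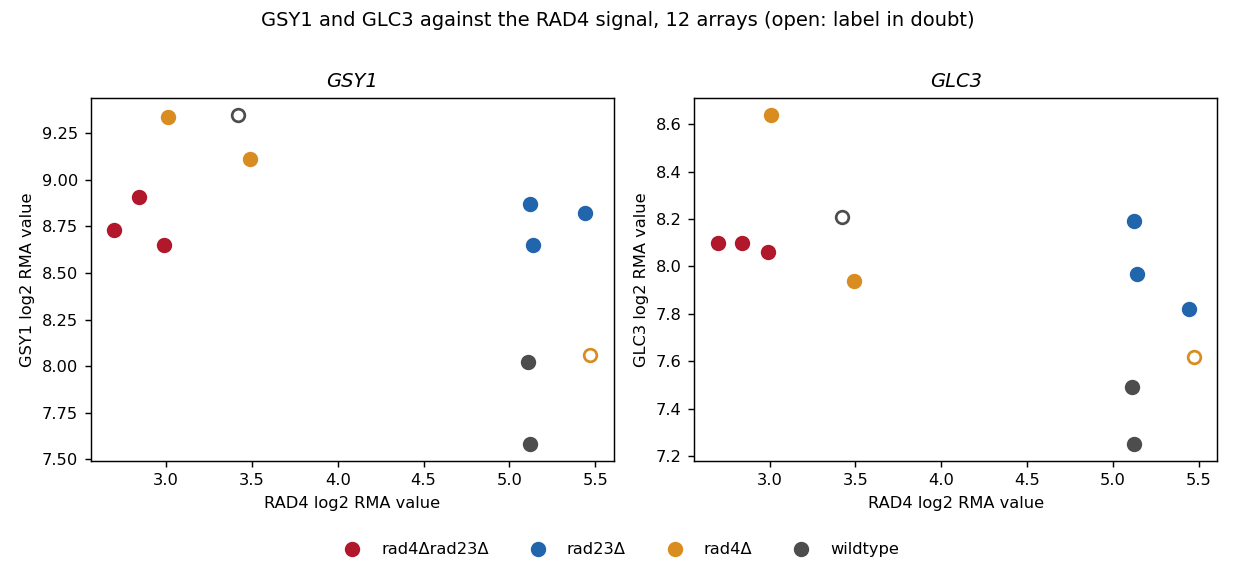
Log2 RMA value of *GSY1* (left) and *GLC3* (right) on the vertical axis against that of *RAD4* on the horizontal axis, 1 point per array, with open points for the arrays labelled *rad4Δ* replicate 2 and wildtype replicate 3. The 3 lowest points of both panels, for *GSY1* between 7.58 and 8.06, are wildtype replicates 1 and 2 and the array labelled *rad4Δ* replicate 2, while the *rad23Δ* arrays share their *RAD4* signal and lie higher.

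*GSY2* (YLR258W), the gene of the main synthase, did not follow *GSY1*. Its means were 8.61 ± 0.10 in *rad4Δrad23Δ*, 8.44 ± 0.21 in *rad23Δ*, 8.54 ± 0.43 in *rad4Δ* and 8.72 ± 0.23 in wildtype (SD, n = 3 each). The arrays of every pair of strains overlapped. Its difference of the double mutant from wildtype was -0.11 (95% interval -0.53 to 0.31), and -0.10 without the arrays in doubt.

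Glycogen is broken down by the phosphorylase Gph1 and the debranching enzyme Gdb1. *GPH1* (YPR160W) had the largest differences of the 10 genes between the double mutant and each single mutant. It was at 8.03, 7.87 and 7.71 in *rad4Δrad23Δ*, at 6.18, 6.78 and 6.77 in *rad23Δ*, at 7.44, 6.05 and 6.62 in *rad4Δ* and at 7.51, 7.53 and 7.32 in wildtype. The double mutant was above all other arrays and *rad23Δ* was below all wildtype arrays. *GPH1* is among the genes labelled on a heat map of a cluster that the study picked on these arrays, so these differences are not independent evidence of its direction.

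*GPH1* was 1.29 higher in *rad4Δrad23Δ* than in *rad23Δ* (standard error 0.28, 2.45-fold), with an adjusted p of 0.0599 with all arrays and 0.0257 without those in doubt (limma). The call was also made with the arrays centred on their medians (0.0483) and in a fit of these 2 strains alone (0.0147). Against *rad4Δ* it was 1.17 higher (2.24-fold, adjusted p = 0.0918). Without the arrays in doubt it was 0.84 higher and was not called (adjusted p = 0.186). The array labelled *rad4Δ* replicate 2 had the lowest *GPH1* value of all 12. Without *rad4Δ* replicate 1, the highest of that strain at 7.44, the difference was 1.54 and passed (adjusted p = 0.00685). That fit keeps the array labelled *rad4Δ* replicate 2. Against wildtype the double mutant was 0.42 higher (95% interval -0.19 to 1.02) and *rad23Δ* was 0.88 lower (0.27 to 1.48 lower, adjusted p = 0.431). In *rad4Δ* the *GPH1* difference from wildtype was -0.75 with all arrays and -0.49 without those in doubt (adjusted p = 0.906 and 0.603).

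*GDB1* (YPR184W) was also highest on average in the double mutant and lowest in *rad23Δ*. It was at 7.72, 7.66 and 7.73 in *rad4Δrad23Δ*, at 7.22, 6.70 and 6.91 in *rad23Δ*, at 7.21, 7.55 and 6.83 in *rad4Δ* and at 7.49, 7.66 and 7.05 in wildtype. The double mutant lay above both single mutants on every array and tied at 7.66 with wildtype replicate 2. Its difference from *rad23Δ* was 0.76 (standard error 0.20, 1.69-fold), with an adjusted p of 0.114 with all arrays, 0.0385 without those in doubt and 0.0384 with only both strains in the fit (limma). Against *rad4Δ* it was 0.51 (adjusted p = 0.363), or 0.68 without the arrays in doubt (adjusted p = 0.0964).

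**Figure D3:**
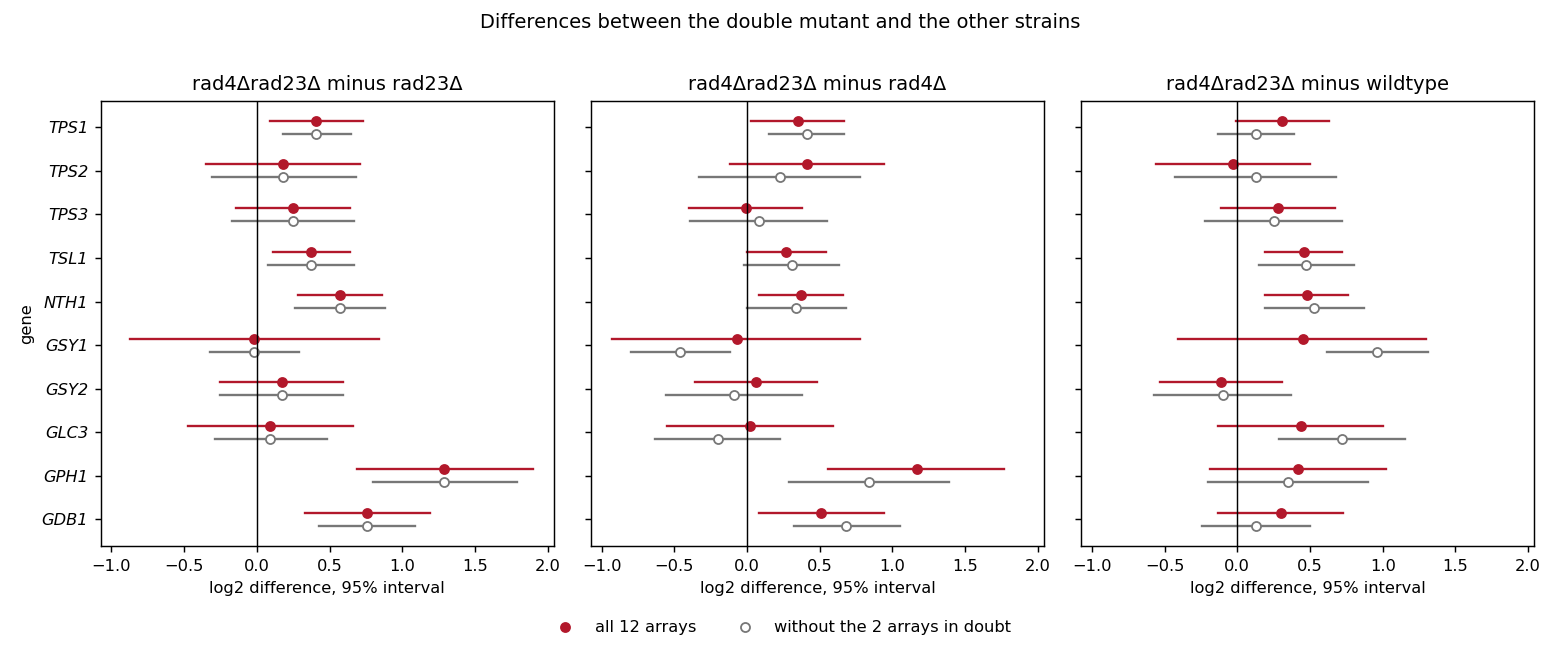
Log2 difference of *rad4Δrad23Δ* from *rad23Δ* (left), from *rad4Δ* (middle) and from wildtype (right) for each gene, with limma's 95% interval, for all 12 arrays (filled) and without the 2 arrays in doubt (open). The *GPH1* interval against *rad23Δ*, 0.69 to 1.90 with all arrays, lies furthest from 0, and the *GSY1* intervals narrow most when the 2 arrays are left out.

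The members were then read against the background of all 9275 probe sets, comparison by comparison. Between *rad4Δrad23Δ* and *rad23Δ*, 0 members were called with all arrays, against 0.873% of all probe sets, and 2 (*GPH1* and *GDB1*) without the arrays in doubt, against 1.35%. At an unadjusted p under 0.05 there were 5 of 10 (*TPS1*, *TSL1*, *NTH1*, *GPH1* and *GDB1*, all higher), against 10.3% of all probe sets. The same 5 had all 3 double mutant arrays apart from all 3 *rad23Δ* arrays, against 20.4%. The median difference of the 10 was 0.31, against -0.01 over all probe sets, and 9 of 10 were positive, all but *GSY1*, against 46.3% of all probe sets. The arrays in doubt have no part in these means.

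Between *rad4Δrad23Δ* and *rad4Δ* *GPH1*, *GDB1*, *NTH1*, *TPS1* and *TSL1* had smaller differences than against *rad23Δ* with all arrays. Without the arrays in doubt *TPS1* differed by 0.41 from either single mutant, and *TSL1* by 0.31 from *rad4Δ* and 0.37 from *rad23Δ*. No member was called with all arrays (0.765% of all probe sets) or without those in doubt (1.25%). These 5 genes again had an unadjusted p under 0.05, against 10.8% of all probe sets, and arrays apart, against 17.2%. The median was 0.31 (0.27 without the arrays in doubt), against -0.02 over all probe sets. Both comparisons use the same 3 double mutant arrays, so they do not count as separate evidence.

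Between *rad4Δrad23Δ* and wildtype 0 members were called with all arrays, against 0.647%, and 1 (*GSY1*) without those in doubt, against 0.787%. At an unadjusted p under 0.05 there were *TSL1* and *NTH1*, 2 of 10 against 11.1%. Arrays were apart for 3 (*TSL1*, *NTH1* and *GPH1*), against 24.9%, a share near that of other probe sets. The median difference was 0.36 (0.30 without the arrays in doubt), against -0.02, with 8 of 10 positive, against 44.1% of all probe sets.

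Against wildtype, the differences of the single mutants ran both ways among the 10 genes. In *rad23Δ* 0 members were called, against 0.28% of all probe sets, and 1 (*GSY1*) without the arrays in doubt, against 0.658%. *GPH1* and *GDB1* had an unadjusted p under 0.05, both lower, against 7.15%, and *GPH1* alone had arrays apart, against 11.5%. The median over the 10 was -0.10 (-0.05 without the arrays in doubt), against -0.01 over all probe sets. In *rad4Δ* 0 members and 0% of all probe sets were called, and 1 (*GSY1*) without the arrays in doubt, against 0.431%. *GPH1* alone had an unadjusted p under 0.05, against 4.16%, and no member had arrays apart, against 5.47%. The median over the 10 was 0.03 (0.08 without the arrays in doubt).

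Whether deleting *RAD4* acted differently in cells without Rad23 was tested as the interaction of both deletions on the log2 scale. *GPH1* was 1.29 higher on deletion of *RAD4* in *rad23Δ* cells and 0.75 lower on its deletion in *RAD23* cells, an interaction of 2.04 (standard error 0.39, 95% interval 1.19 to 2.90, adjusted p = 0.089 from limma). Without *rad4Δ* replicate 1 the *GPH1* interaction was 2.41 and passed (adjusted p = 0.0087), in a fit that keeps both arrays in doubt. *GDB1* had an interaction of 0.96 (adjusted p = 0.292) and *NTH1* of 0.46 (adjusted p = 0.498). No member was called with all arrays, against 0.0863% of all probe sets, and these 3 had an unadjusted p under 0.05, against 8.92%. Without the arrays in doubt 3 were called, against 1.19%. They were *GPH1* at 1.78 (adjusted p = 0.0455), *GDB1* at 1.32 (adjusted p = 0.0278) and *GSY1* at -1.44 (adjusted p = 0.0123). For *GSY1*, the negative sign means that *RAD4* deletion was followed by a difference of 1.42 in *RAD23* cells and -0.02 in *rad23Δ* cells. The double mutant and the *rad4Δ* strain were made separately, so loss of *RAD4* and other differences between the strains cannot be told apart.

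The other genes of the pathway were read from a list of 22 that supply, prime, regulate or otherwise hydrolyse the 2 stores, and all 22 were measured. With all arrays, 1 was called in any comparison. This was *PIG1*, which encodes a likely targeting subunit of the Glc7 phosphatase that activates glycogen synthase, at 6.26 ± 0.05 in *rad4Δrad23Δ* and 5.66 ± 0.19 in *rad4Δ* (SD, n = 3), a difference of 0.61 (adjusted p = 0.0352 from limma). That comparison called 0.765% of all probe sets with all arrays and 1.25% without the arrays in doubt. Without them *PIG1* passed at 0.65 (adjusted p = 0.045). Then *HXK1*, a hexokinase gene, was also higher in the double mutant than in *rad4Δ*, by 0.80 (adjusted p = 0.00552), as was *ATH1*, the acid trehalase gene, by 0.62 (adjusted p = 0.0283). *HXK1* was at 11.08, 11.11 and 11.14 in *rad4Δrad23Δ*, above all other arrays, of which the highest was 10.77.

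*GLG1*, which encodes a glycogenin that primes new glycogen, had another order of strains. It was at 5.19, 5.06 and 5.18 in *rad4Δrad23Δ*, at 5.35, 5.31 and 5.56 in *rad23Δ*, at 5.74, 5.17 and 6.21 in *rad4Δ* and at 5.01, 4.93 and 5.70 in wildtype. The arrays labelled *rad4Δ* replicates 1 and 3 and wildtype replicate 3 were the 3 highest, as for *GSY1*. Without the arrays in doubt *GLG1* was 1.00 higher in *rad4Δ* than in wildtype (adjusted p = 0.026) and 0.83 lower in the double mutant than in *rad4Δ* (adjusted p = 0.0283). These comparisons called 0.431% and 1.25% of all probe sets. The interaction was then called for *GLG1* at -1.27 (adjusted p = 0.0169) and for *HXK1* at 0.77 (adjusted p = 0.0412), against 1.19% of all probe sets. The second glycogenin gene *GLG2* and the sugar phosphate genes *PGM2* and *UGP1* were not called in any comparison with or without these arrays.

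**Figure D4:**
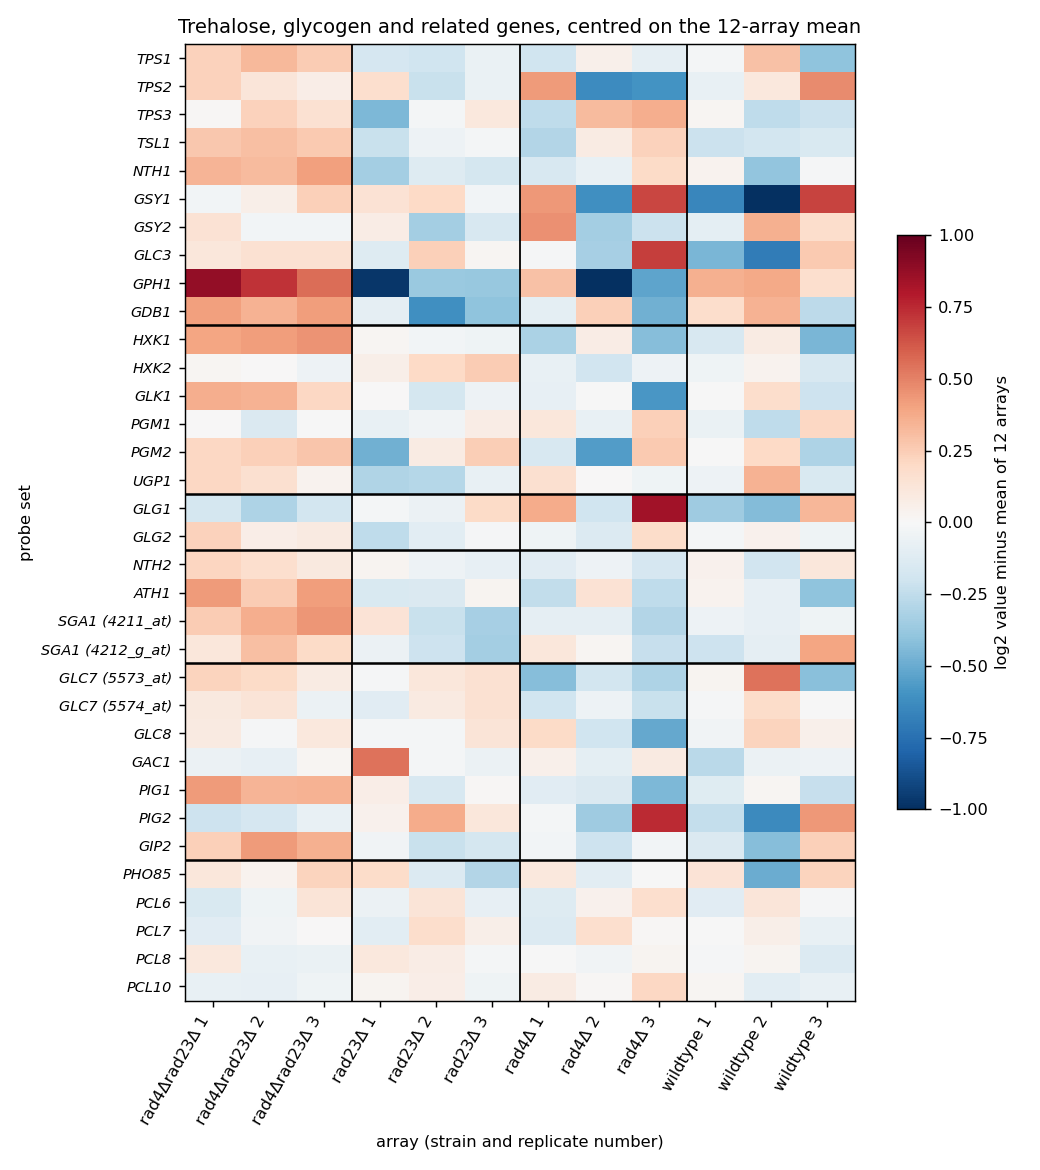
Log2 value minus the mean of 12 arrays for the probe sets of the 10 genes (top block) and of the related genes (blocks downward: glucose phosphorylation and supply, glycogenins, other hydrolases, Glc7 phosphatase and its partners, Pho85 kinase and its cyclins), with 1 column per array and colours that stop at 1 in each direction. The *rad4Δrad23Δ* columns are red for *GPH1*, *GDB1*, *NTH1*, *HXK1*, *ATH1* and *PIG1*, and the *GSY1*, *GLC3* and *GLG1* rows differ between the array labelled *rad4Δ* replicate 2 and the other *rad4Δ* arrays.

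Stress and growth-state genes also differed between these strains. Of 9 listed, of which *HXK1* is also among the 22, 3 (*HSP12*, *ALD3* and *GRE1*) were called higher in *rad4Δrad23Δ* than in *rad23Δ* with all arrays, against 0.873% of all probe sets, with a list median of 0.81. *HSP12*, a membrane-protecting heat shock protein gene, averaged 11.13 ± 0.05 in *rad4Δrad23Δ* and 8.49 ± 0.10 in *rad23Δ* (SD, n = 3 each), with single arrays from 8.41 to 11.18. Against wildtype, *ALD3* and *GRE1* were called higher in the double mutant and none lower (0.647% of all probe sets), with a list median of 0.60. Both had low signals. *ALD3* averaged 4.73 in *rad4Δrad23Δ* and 3.91 in *rad23Δ*, and *GRE1* 4.44 and 3.44. On every array both lay below 4.88, the highest *RAD23* signal in strains lacking that gene. The calls of *ALD3* and *GRE1* therefore rest on signals as low as that of a deleted gene. Without the arrays in doubt, 4 of the 9 were called higher than in *rad23Δ* and 5 higher than in *rad4Δ*. Against wildtype *ALD3* and *GRE1* were then called higher and *HSP26* lower. These comparisons called 1.35%, 1.25% and 0.787% of all probe sets, in that order. In the single mutants *HSP12* and *HSP26* were then called lower than in wildtype, against 0.658% of all probe sets in *rad23Δ* and 0.431% in *rad4Δ*. *HSP12* differed by -2.18 in *rad23Δ* and -1.54 in *rad4Δ*, and *HSP26* by -2.02 in *rad23Δ* and -1.22 in *rad4Δ*. The part of culture state in the *GPH1*, *GDB1* and *NTH1* differences was not tested. In these culture extracts fewer expressing cells and less RNA per cell cannot be told apart.

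The genes whose values ran most like the mean of the 10 over the 12 arrays were ranked by Pearson's r, as a description. They were *CDC28* (r = 0.922), *YDL199C* (0.913), *ALD3* (0.912), *GPD1* (0.894), *DUN1* (0.893), *RTC3* (0.893), *MFA1* (0.884) and *GRX6* (0.878), each higher on all 3 double mutant arrays than on the other 9. *MFA1* was measured here by a probe set designed for a gene family. Its other probe set averaged 3.81 in *rad4Δrad23Δ*, 3.65 in *rad23Δ*, 3.74 in *rad4Δ* and 3.70 in wildtype, and did not set the double mutant apart. The arrays of a strain share their genotype and are not independent points. Among the 10 genes themselves r with their mean ran from 0.22 for *TPS3* to 0.821 for *NTH1*, and *GPH1* had 0.808. Over the 10 arrays not in doubt, r ran from 0.862 to 0.946 for the 8 genes and from 0.164 for *GSY2* to 0.874 for *NTH1* among the members. *GPD1*, the glycerol 3-phosphate dehydrogenase gene of the osmotic stress response, was at 10.63 in *rad4Δrad23Δ*, 10.15 in *rad23Δ*, 10.08 in *rad4Δ* and 10.16 in wildtype. It was not called in any of the 5 comparisons of strains.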

How the data were processed

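Total RNA of 12 cultures was hybridised to Affymetrix yeast S98 arrays. The authors made the deposited log2 values by robust multichip average (RMA). The submitters' processing notes name affy 1.5.8, Bioconductor 1.5, R 2.0.1 and Microarray Suite 5.0. Array medians lay between 5.83 and 5.90, and values carry 2 decimals.

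After 60 Affymetrix controls had been left out of 9335 probe sets, 9275 were fitted with limma 3.58.1 in R 4.3.3. The model had 1 mean per strain over all 12 arrays (residual degrees of freedom 8, prior 4.03). The comparisons were of every mutant against wildtype, of *rad4Δrad23Δ* against either single mutant, and the interaction. A call was an adjusted p under 0.05 (Benjamini-Hochberg over all probe sets tested), with no minimum fold, and intervals are limma's 95% intervals. Precision is limited by having 3 arrays in each strain, and p-values measure the spread between these repeats. With 3 arrays against 3, exact permutation could not give a p below 0.1. The procedure was tested on simulated data with equal spread in all strains and no labels in doubt, unlike these arrays.

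Genes were named from the platform annotation, and the RefSeq gene table of assembly R64 matched all 10 members. Named genes are the 10 members, other listed pathway genes past the threshold with *GLG2*, *PGM2* and *UGP1*, the 8 genes most like the members' mean, and *RAD4*, *RAD23* and *HIS3* as checks. The growth-state genes, the upstream regulators, *STE2*, *STE3* and the unnamed probe set were named outside this rule, after their values were seen. The members, the lists and the omission of both arrays in doubt were chosen with earlier results of these data known. Alternatives covered scaling, dim probe sets, strains in the fit, a variance trend, array weights (limma's gene-by-gene method), probe sets per gene, a replicate block and the omission of single arrays. *MFALPHA1* and *MFALPHA2* found no probe set of their own. Sequences were not used here.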

Additional observations from a re-analysis of the deposited data

Results flagged for a closer look

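With the 2 arrays in doubt left out, the effect of deleting *RAD4* differed between *rad23Δ* cells and *RAD23* cells for 3 of the 10 genes, by limma's test of the interaction, which called 1.19% of all probe sets. *GPH1* had an interaction of 1.78 (adjusted p = 0.0455), *GDB1* of 1.32 (adjusted p = 0.0278) and *GSY1* of -1.44 (adjusted p = 0.0123). With all 12 arrays the values were 2.04 for *GPH1*, 0.96 for *GDB1* and -0.54 for *GSY1*, and none was called.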

How the results depend on the processing

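With all 12 arrays, 0 of the 10 genes were called in each of the 6 comparisons, and this count changed in some comparisons under 4 alternatives and when *rad4Δ* replicate 1 was left out. Without the 2 arrays in doubt it was 1 against wildtype in *rad4Δrad23Δ*, in *rad23Δ* and in *rad4Δ*, 2 between *rad4Δrad23Δ* and *rad23Δ*, 0 between *rad4Δrad23Δ* and *rad4Δ* and 3 for the interaction. With array weights it was 3 for *rad4Δrad23Δ* against wildtype, 2 for *rad23Δ* against wildtype, 5 for *rad4Δrad23Δ* against *rad23Δ*, 2 for *rad4Δrad23Δ* against *rad4Δ*, 3 for the interaction and 0 for *rad4Δ* against wildtype. The weights also raised the share of all probe sets called, to 8.92%, 9.08%, 9.96%, 3.71%, 3.58% and 0.0108% in that order. With only the strains compared in the fit it was 1 for *rad4Δrad23Δ* against wildtype and 3 for *rad4Δrad23Δ* against *rad23Δ* (0.97% and 1.68% of all probe sets). With the arrays centred on their medians it was 1 for *rad4Δrad23Δ* against *rad23Δ* (0.873%). Leaving out 1 array at a time gave 0 to 1 for *rad4Δrad23Δ* against *rad4Δ* and for the interaction (*GPH1*, without *rad4Δ* replicate 1, where 0.733% and 0.216% of all probe sets were called) and 0 in the other comparisons. The count was 0 throughout with the replicate block, the further quantile normalization, the variance trend, without the dimmest probe sets and with 1 probe set per gene. The causes were not tested. Deviations of same-numbered arrays had an r from -0.366 to 0.609 over 18 pairs, and the numbers were not taken as pairs. Of 890 single-gene differences under the alternatives, none of them called with all arrays, 44 turned their sign and 30 became called. The fit of only the compared strains was not run for the interaction, which needs all 4.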

Other observations

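Among 10 measured genes of regulators that act upstream of both stores were the stress activators *MSN2* and *MSN4*, the kinase genes *RIM15*, *SNF1*, *TPK2* and *TPK3*, and *BCY1*, which encodes the inhibitory subunit of protein kinase A. None was called in any of the 6 comparisons, with or without the 2 arrays in doubt (limma). The list medians were 0.15 between *rad4Δrad23Δ* and *rad23Δ*, 0.14 between *rad4Δrad23Δ* and *rad4Δ* and 0.02 between *rad4Δrad23Δ* and wildtype. *MSN2* was between 7.72 and 7.88 in *rad4Δrad23Δ*, 7.53 and 7.75 in *rad23Δ*, 7.52 and 7.77 in *rad4Δ* and 7.77 and 7.87 in wildtype. The Pho85 kinase gene and the 4 cyclin genes listed with it also had no call.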
